A study of Mus musculus with 10 samples.

Results

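Cholesterol synthesis was followed in muscle without desmin through 8 genes, Hmgcs1, Idi1, Fdps, Fdft1, Sqle, Lss, Cyp51 and Insig1, whose rows were taken by symbol from a table of 54232 mouse genes. Of these members, 7 encode enzymes of the pathway and Insig1 encodes a regulator of it. None of them takes up cholesterol, so uptake was described from a separate list. Expression was measured by RNA-seq in the gastrocnemius, a calf muscle, of 5 desmin knock-out mice (genotype Des -/-) and 5 wild-type mice (Des wt/wt), all of the strain B6J.129Sv-Destm1Cba/Cscl and 3 months of age. Desmin, the main intermediate filament protein of muscle, is absent through a germline knock-out, so the loss is not limited to muscle fibers. Whole muscle was used. The wild-type animals were littermates. The labels and methods name the gastrocnemius, whereas other passages of the study name the plantaris, a neighbouring calf muscle, beside it, so that the tissue may hold both. The methods also mention pooling of the RNA per genotype, whereas the table gives each mouse its own column, and each column was taken as 1 replicate. Values are regularized log (rlog) values, which lie on a log2 scale and are shrunken towards the mean of each gene, so that small values in particular are drawn together. In whole muscle, fewer cells of a type and less RNA per cell cannot be told apart.

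Cells build cholesterol from acetyl-CoA in the mevalonate pathway. Its early steps yield isoprenoid diphosphates, which also feed protein prenylation, ubiquinone and dolichol, and its later steps make squalene, lanosterol and finally cholesterol. When sterols in the endoplasmic reticulum run low, the protein SCAP carries the transcription factors SREBP to the Golgi apparatus, where they are cut, and the released part raises transcription of nearly all enzymes of the pathway. Insig proteins hold SCAP back when sterols are plentiful, and Insig1 is itself a target of SREBP. Skeletal muscle needs cholesterol for its surface membrane and T-tubules, and it is a tissue in which drugs against this pathway can cause myopathy.

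The Des level matched the label of every library. It ran from 11.76 to 11.89 in desmin knock-out mice and from 16.10 to 17.74 in controls. Signal assigned to Des thus remained in knock-out mice, and its source was not tested. The 8 muscle fiber transcripts used as a check, such as Acta1 and Ckm, were abundant in all mice. Wild-type mouse 3 stood apart. It correlated with the remaining controls at 0.982 on average, where those reached 0.989 to 0.991, and the sum of its values on the linear scale was 1.48 times the median of all mice. Results are therefore given with and without it. All 8 members were among the 14289 genes tested with limma, whose mean had to reach log2(10), and none was lost to this limit.

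Of the 8 genes, 1 differed between the genotypes, Fdft1, which was lower in desmin knock-out muscle (limma, adjusted p under 0.05 over all tested genes). The other 7 did not pass, and 0 of 8 rose, where 7.7% of all tested genes did. Over all tested genes, 13.7% passed in either direction and 5.99% passed as lower, so 1 of 8 genes (12.5%) lies near the share found across the transcriptome. At an unadjusted p under 0.05 there were 2 of 8, Fdft1 and Idi1, beside 27.6% of all tested genes. The means of 5 members were higher and those of 3 were lower in knock-out muscle. The median log2 difference of the members was 0.04, beside -0.0029 for all tested genes. Without wild-type mouse 3 the members' median was -0.0022, and Fdft1 was again the 1 gene that passed, where 17.5% of all tested genes did.

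**Figure D1:**
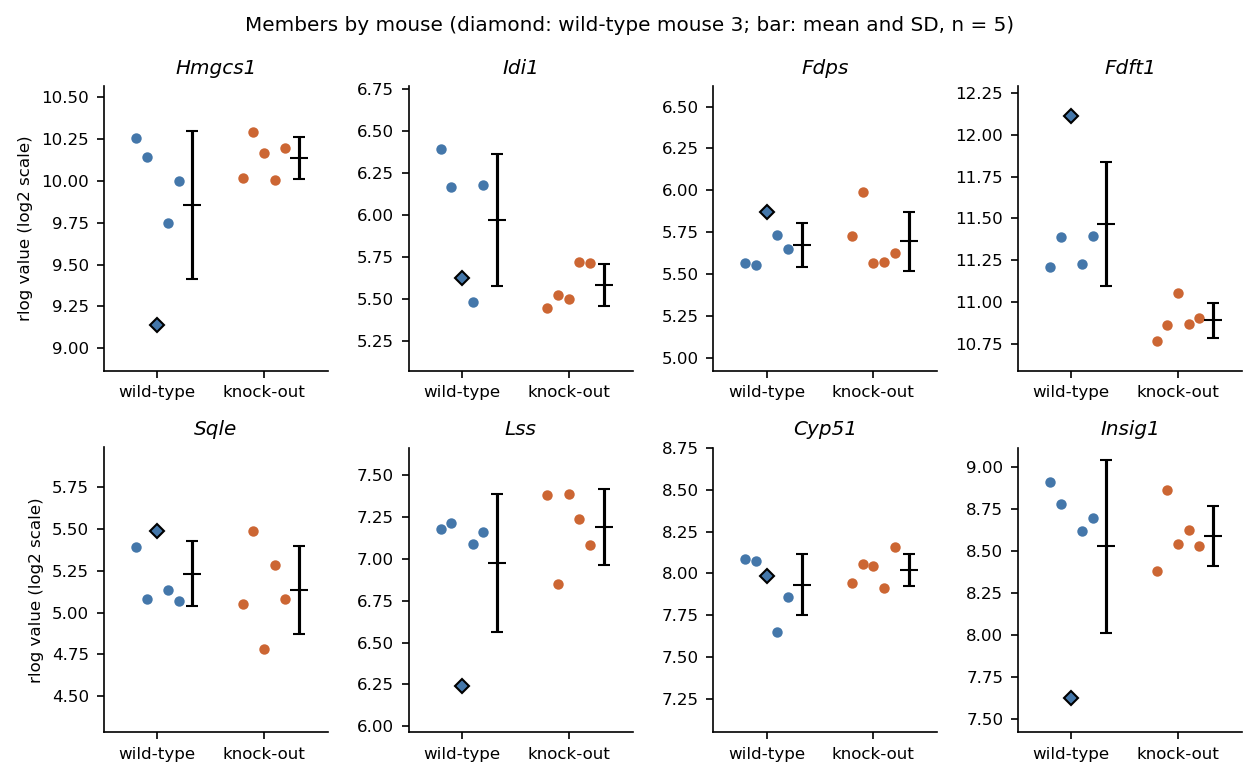
Each panel plots the rlog value (log2 scale) of 1 gene in every mouse, with wild-type in blue, desmin knock-out in orange, wild-type mouse 3 as a diamond, and the mean ± SD (n = 5) as a bar; all panels span the same height in log2 units. The groups separate for Fdft1, where knock-out values reach at most 11.06 and wild-type values begin at 11.21, and overlap for the other 7 genes.

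Fdft1 (ENSMUSG00000021273, chromosome 14, 63145150 to 63179578 of GRCm38, reverse strand) encodes squalene synthase, the enzyme that commits farnesyl diphosphate to sterols. The 5 wild-type mice had rlog values of 11.21, 11.39, 12.11, 11.23 and 11.39. In the desmin knock-out mice the values were 10.77, 10.86, 11.06, 10.87 and 10.91. Every knock-out mouse lay below every wild-type mouse, and wild-type mouse 3 was far above the rest. The mean was 10.89 ± 0.10 in knock-out and 11.47 ± 0.37 in wild-type muscle (SD, n = 5 each). Knock-out minus wild-type was thus -0.57 on the log2 scale with a standard error of 0.15 (limma, adjusted p = 0.0214), or 67.2% of the wild-type level on this scale. An exact permutation test (two-sided) gave p = 0.00794, which is the smallest value that 5 against 5 mice allow. Knock-out values all below the wild-type values were found for 6.97% of tested genes. Leaving out wild-type mouse 3 made the difference smaller, -0.41, and its adjusted p lower, 0.00195 (limma). The spread of the remaining 4 wild-type mice was then 0.10 (SD). Without knock-out mouse 1, 2 or 4 the adjusted p was 0.058, 0.0539 and 0.0508 (limma), with differences of -0.54, -0.57 and -0.57.

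Reads of Fdft1 could be shared in part with other genes. Its end overlaps Ctsb, the gene of the lysosomal protease cathepsin B, over 774 bases on the opposite strand. Ctsb had 13.78 in knock-out and 13.79 in wild-type muscle and did not pass (log2 difference -0.0048, adjusted p = 0.984 from limma). The annotated gene Gm6781 has a transcript at least 95% identical to Fdft1 over 300 bases or more, and how reads matching both were counted is not given in the sources used here.

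Upstream of Fdft1 lie Hmgcs1, Idi1 and Fdps, and none of these genes passed the test. Idi1 (ENSMUSG00000058258, chromosome 13, 8885501 to 8892451, forward strand) encodes the isomerase that interconverts the isoprenoid building blocks. Its wild-type values were 6.39, 6.17, 5.62, 5.48 and 6.18, and its knock-out values were 5.45, 5.52, 5.50, 5.72 and 5.71. Wild-type mice 1, 2 and 5 lay above all knock-out mice, whereas wild-type mice 3 and 4 lay among them. The log2 difference of -0.39 (standard error 0.17, 95% interval -0.75 to -0.02) had an unadjusted p of 0.0385 and an adjusted p of 0.154 (limma), and the exact permutation test gave p = 0.111. The result for Idi1 also depended on the choice of mice. Without wild-type mouse 4 its adjusted p was 0.0452 (limma) and its log2 difference -0.51, and without wild-type mouse 3 the difference was -0.47 (adjusted p = 0.0654 from limma). Annotated transcripts of 2 other genes, Gm13502 and Gm35570, are nearly identical to part of Idi1.

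Hmgcs1 (ENSMUSG00000093930, chromosome 13, 119690379 to 119708260, forward strand) encodes the cytosolic synthase that makes HMG-CoA. Wild-type mice had 10.25, 10.14, 9.14, 9.75 and 9.998, and knock-out mice had 10.01, 10.29, 10.17, 10.01 and 10.20. The knock-out values thus lay inside the upper part of the wild-type range, apart from knock-out mouse 2 slightly above it. The log2 difference was 0.28 (standard error 0.17, 95% interval -0.10 to 0.66, adjusted p = 0.324 from limma). Wild-type mouse 3 supplied most of it, since without this mouse the difference was 0.10 (adjusted p = 0.574 from limma).

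Fdps (ENSMUSG00000059743, chromosome 3, 89093588 to 89101959, reverse strand) encodes the synthase of farnesyl diphosphate, from which prenylation and sterol synthesis branch. Knock-out mice had 5.57 to 5.99 and controls 5.56 to 5.87, an almost complete overlap. The log2 difference was 0.02 (95% interval -0.23 to 0.28, adjusted p = 0.921 from limma). Its level is uncertain, because 4 other annotated genes have transcripts nearly identical to part of Fdps and Gm43738 covers 7512 bases of it on the same strand.

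Downstream of Fdft1, Sqle, Lss and Cyp51 did not pass either. Sqle (ENSMUSG00000022351, chromosome 15, 59315077 to 59331192, forward strand) encodes squalene epoxidase, a rate-limiting enzyme of the sterol part of the pathway. Its values ran from 4.78 to 5.49 in knock-out and from 5.07 to 5.49 in wild-type muscle, with a log2 difference of -0.10 (95% interval -0.41 to 0.22, adjusted p = 0.706 from limma). It had the lowest rlog values of the 8 genes, where shrinkage is strongest.

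Lss (ENSMUSG00000033105, chromosome 10, 76531588 to 76557138, forward strand) encodes the cyclase that forms lanosterol. Wild-type mice had 7.18, 7.21, 6.24, 7.09 and 7.16, and knock-out mice had 7.38, 6.85, 7.38, 7.24 and 7.08. Apart from mouse 3, the wild-type mice lay close together, and the knock-out mice lay on both sides of them. The log2 difference of 0.21 (95% interval -0.19 to 0.61, adjusted p = 0.489 from limma) was 0.03 without wild-type mouse 3.

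Cyp51 (ENSMUSG00000001467, chromosome 5, 4081145 to 4104746, reverse strand) encodes the demethylase of lanosterol. Its values ran from 7.91 to 8.16 in knock-out and from 7.65 to 8.09 in wild-type muscle. The log2 difference of 0.09 had the narrowest 95% interval of the 8 genes, -0.14 to 0.32 (adjusted p = 0.628 from limma). Cyp51 overlaps Akap9 on the opposite strand over 166 bases. Lss and Hmgcs1 also overlap annotated genes on the opposite strand, 4930483K19Rik and Gm48342, which were under the expression limit.

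Insig1 (ENSMUSG00000045294, chromosome 5, 28071363 to 28078662, forward strand) is the sterol sensor partner among the members and is often read as a gauge of SREBP activity. Wild-type mice had 8.91, 8.78, 7.62, 8.62 and 8.70, and knock-out mice had 8.38, 8.87, 8.54, 8.63 and 8.53. Wild-type mouse 3 was far below all others, and the remaining wild-type mice lay at or above most knock-out mice. The log2 difference was 0.06 (95% interval -0.38 to 0.50, adjusted p = 0.872 from limma). Its sign turned when wild-type mouse 3 was left out, to -0.16 (adjusted p = 0.327 from limma), so no direction can be given for Insig1.

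**Figure D2:**
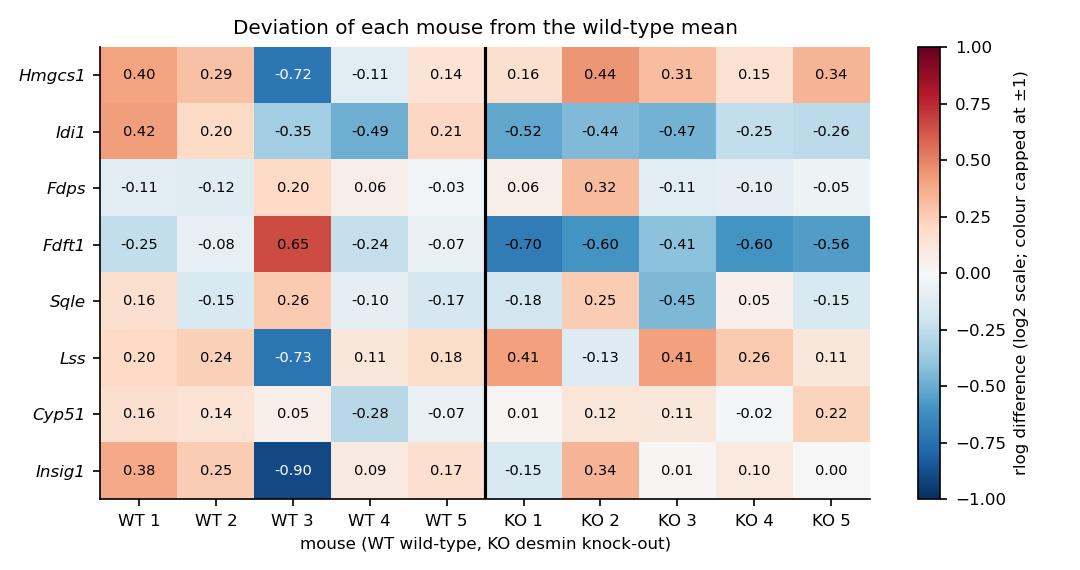
Each cell gives the deviation of 1 mouse from the wild-type mean of a gene on the rlog scale, in red above and in blue below it, with wild-type mice (WT) left and desmin knock-out mice (KO) right of the line. Fdft1 is below the wild-type mean in all 5 knock-out mice, from -0.41 to -0.70, and the column of wild-type mouse 3 holds the lowest values of Hmgcs1, Lss and Insig1 and the highest of Fdft1.

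The members also differed in level. Per kilobase of exon sequence, on the log2 scale, Fdft1 was the highest in wild-type muscle with 9.39 ± 0.37 (SD, n = 5), followed by Hmgcs1 with 7.66 ± 0.44, Insig1 with 6.90 ± 0.52 and Cyp51 with 5.79 ± 0.18. Idi1 (4.16), Fdps (3.60), Lss (3.54) and Sqle (2.76) were lower. The wild-type ranges of Hmgcs1 and Insig1 overlapped, as did those of Idi1 with Fdps, Fdps with Lss, and Lss with Sqle. These levels rest on rlog values and on the length of all annotated exons. In knock-out muscle Fdft1 was also the highest, with 8.81 ± 0.10 (SD, n = 5) on the same scale.

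Some members varied together between mice of the same genotype. After the genotype mean of each gene was subtracted, Hmgcs1 and Insig1 had a correlation of 0.94 over 10 mice and 0.73 over 9 mice without wild-type mouse 3. For Hmgcs1 and Idi1 the values were 0.72 and 0.73, and for Idi1 and Cyp51 they were 0.61 and 0.77. Hmgcs1 and Cyp51 had 0.32 with wild-type mouse 3 and 0.93 without it. Fdft1 ran against Hmgcs1 (-0.78), Insig1 (-0.86) and Lss (-0.78) when wild-type mouse 3 was included, but had 0.22, 0.015 and 0.19 with them when it was not. Lss also ran against Fdps (-0.75 with and -0.74 without wild-type mouse 3) and Sqle (-0.68 and -0.69), and Fdps and Sqle had 0.63 and 0.53 with each other. All values of a mouse come from 1 library, so that these correlations describe the libraries and carry no test.

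Of all other tested genes, those most like the mean of the 8 members between mice of a genotype were Zfp619, Atcayos, Trp53inp1, Crim1, Pyroxd1, Gk, Acbd3, Acsl4, Eif1a and Mtpn. Their correlations with this mean ran from 0.949 to 0.983 over 10 mice and from 0.905 to 0.97 over 9 mice without wild-type mouse 3. The genes were picked for the highest values over the 10 mice, so high values follow from the choice. The 9 mice are among those used to pick them and give no separate check. None of the 10 belongs to the lists of cholesterol genes used here. Among the members, Hmgcs1 had 0.92 with the mean, to which it contributes, whereas Fdft1 had -0.60 with and 0.11 without wild-type mouse 3. Over 10 mice Idi1 had 0.87, Insig1 0.85, Cyp51 0.52, Lss 0.48, Sqle 0.05 and Fdps -0.36. The mean thus followed some members far more than others.

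The sequence upstream of the RefSeq start site is shown for Hmgcs1, Idi1, Cyp51 and Insig1. The latter 3 are shown because each had a correlation of at least 0.73 with Hmgcs1 over the 9 mice without wild-type mouse 3. This limit was set with the correlations known, and the choice depends on the mice used. Over all 10 mice Cyp51 had 0.32 with Hmgcs1, and Lss had 0.7, but -0.26 over the 9 mice. Windows of 250 bases before the start were taken from RefSeq promoters (GRCm38.p6), in which 5 members were found, these and Lss. This start can differ from the gene coordinates given above. By those coordinates, the windows of Idi1, Cyp51, Insig1 and Lss end inside the gene. The CCAAT boxes marked in Idi1 and Cyp51 then lie inside the gene too. The motifs, searched on both strands, were a sterol regulatory element, written TCACNCCAC, at which SREBP proteins bind, the CCAAT box, the site of the factor NF-Y, and the E-box CACGTG, a further site for SREBP and other factors. Matches are in capitals, and ATTGG is the CCAAT box read on the other strand.
Hmgcs1 (chr13:119690101-119690350, forward strand): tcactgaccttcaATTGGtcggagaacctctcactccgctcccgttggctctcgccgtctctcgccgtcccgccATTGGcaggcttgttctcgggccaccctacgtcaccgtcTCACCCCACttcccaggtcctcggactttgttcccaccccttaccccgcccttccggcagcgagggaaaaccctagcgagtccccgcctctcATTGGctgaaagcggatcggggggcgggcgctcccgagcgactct
Idi1 (chr13:8885356-8885605, forward strand): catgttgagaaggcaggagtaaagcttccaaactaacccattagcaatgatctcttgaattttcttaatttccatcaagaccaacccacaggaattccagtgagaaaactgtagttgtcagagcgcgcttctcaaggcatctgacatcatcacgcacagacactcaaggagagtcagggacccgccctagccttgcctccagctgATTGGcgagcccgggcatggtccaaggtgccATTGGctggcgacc
Cyp51 (chr5:4104698-4104947, reverse strand): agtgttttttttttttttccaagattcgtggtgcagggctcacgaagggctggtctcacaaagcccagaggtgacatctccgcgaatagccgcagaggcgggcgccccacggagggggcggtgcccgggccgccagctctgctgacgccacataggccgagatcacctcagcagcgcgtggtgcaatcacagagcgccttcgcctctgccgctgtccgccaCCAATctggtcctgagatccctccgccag
Insig1 (chr5:28071162-28071411, forward strand): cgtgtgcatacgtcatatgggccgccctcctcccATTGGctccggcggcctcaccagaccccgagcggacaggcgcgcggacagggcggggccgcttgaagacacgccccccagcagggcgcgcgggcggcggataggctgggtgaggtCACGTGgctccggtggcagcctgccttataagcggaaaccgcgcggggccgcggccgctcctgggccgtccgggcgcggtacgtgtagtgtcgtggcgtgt

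In these windows the sterol regulatory element was matched in Hmgcs1 alone, beginning 137 bases before the start, and 1.05% of 32851 promoter windows of this length held a match. The E-box was matched in Insig1, 101 bases before the start, and in 6.02% of all windows. All 5 windows held a CCAAT box, which 33.8% of all windows did. Hmgcs1 had 3 of them and Idi1 had 2. A match describes these letters, and a window without one says nothing about the binding of a factor.

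The other genes of the pathway were described from lists, of which 72 of 75 listed genes were tested and 10 (13.9%) passed, beside 13.7% of all tested genes. In the list of other synthesis enzymes, 15 of 16 genes were tested, 0 were higher and 1 (6.67%) was lower. This was Hsd17b7, which encodes a ketoreductase of the late pathway (log2 difference -0.45, standard error 0.12, adjusted p = 0.0283 from limma). Its values ran from 7.97 to 8.33 in knock-out and from 8.26 to 8.85 in wild-type muscle, and wild-type mouse 3 was the control that lay inside the knock-out range. The call was lost in 9 of 20 other settings, among them without knock-out mouse 1, 4 or 5 or wild-type mouse 1, 2 or 4 (adjusted p from 0.0509 to 0.0781, limma). Neither Dhcr7, an enzyme of the last steps (log2 difference -0.28, adjusted p = 0.107 from limma), nor Tm7sf2, a sterol reductase (-0.25, adjusted p = 0.256), passed. The median of the list was -0.07.

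The machinery that switches SREBP on was measured with 10 genes, of which 0 passed after adjustment and 1, Rnf139, had an unadjusted p under 0.05 (limma). Of all tested genes, 13.7% passed and 27.6% had an unadjusted p under 0.05 (limma). Srebf2, which encodes the SREBP form that chiefly drives cholesterol synthesis, had 9.29 ± 0.13 in knock-out and 9.34 ± 0.15 in wild-type muscle (SD, n = 5), and the log2 difference was -0.05 (limma, adjusted p = 0.795). For Srebf1, the form tied to fatty acid synthesis, the log2 difference was -0.16 (limma, adjusted p = 0.465), for Scap -0.11 (adjusted p = 0.649 from limma), and for Insig2 0.02 (adjusted p = 0.904 from limma). Srebf2, Scap and Insig2 changed sign under other settings, and Srebf1 did so under sample weights. Rnf139, a ubiquitin ligase of the endoplasmic reticulum, had -0.24 (adjusted p = 0.136 from limma), and Mbtps2, the protease that makes the final cut in SREBP, 0.22 (adjusted p = 0.288).

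In the list for uptake and transport, 13 of 14 genes were tested, of which 1 was higher and 2 were lower. That is 23.1% of its tested genes, beside 13.7% of all tested genes. Npc1, which exports cholesterol from lysosomes, was lower in all 5 knock-out mice (11.08 to 11.50) than in any wild-type mouse (11.71 to 12.02), and knock-out minus wild-type was -0.63 (limma, standard error 0.10, adjusted p = 8.5e-04). Scarb1, the receptor for high-density lipoprotein, had values from 7.75 to 8.27 in knock-out and from 8.34 to 9.08 in wild-type muscle (log2 difference -0.61, adjusted p = 0.0141 from limma). Gramd1b, which moves cholesterol from the plasma membrane to the endoplasmic reticulum, went the other way. Its values were 9.10 to 9.56 in knock-out and 8.34 to 8.62 in wild-type muscle, and knock-out minus wild-type was 0.79 (limma, standard error 0.11, adjusted p = 2.3e-04). Without wild-type mouse 3 these differences were -0.67, -0.50 and 0.77.

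The list for efflux, storage and the sterol receptor LXR had 8 of 9 genes tested, with 2 higher and 2 lower. That is 50% of its tested genes, beside 13.7% of all tested genes. The list is short, was chosen with earlier results of these data known, and was not tested as a set. Soat1, which esterifies cholesterol for storage, was higher, with values from 7.06 to 7.32 in knock-out and from 6.10 to 6.78 in wild-type muscle (log2 difference 0.69, standard error 0.13, adjusted p = 0.00212 from limma). Nceh1, a hydrolase of cholesteryl esters, was higher by 0.50 (adjusted p = 0.0126 from limma). Lower were Cyp27a1, a mitochondrial oxidase of cholesterol (log2 difference -0.42, adjusted p = 0.0201 from limma), and Nr1h3, which encodes LXR alpha (log2 difference -0.64, adjusted p = 0.0493 from limma). Cyp27a1 lies 0.622 Mb from Des on chromosome 1, and whether the genotypes differ in sequence near the targeted gene was not tested. The call of Cyp27a1 was lost in 3 of 20 other settings, among them without knock-out mouse 2 (adjusted p = 0.0604 from limma) or 5 (0.0612). That of Nr1h3 was lost in 11, among them without knock-out mouse 1, 2, 4 or 5 or wild-type mouse 2 or 4 (adjusted p from 0.059 to 0.121, limma).

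Of the 12 genes of the isoprenoid branches, 0 passed and 0 had an unadjusted p under 0.05 (limma), with a median log2 difference of -0.03. The smallest p values belonged to Nus1, a subunit of the dolichol-making transferase (log2 difference 0.23, adjusted p = 0.214 from limma), Coq2, of ubiquinone synthesis (-0.13, adjusted p = 0.333), and Fnta, a subunit of the prenyl transferases (-0.14, adjusted p = 0.333). Of the 14 genes of fatty acid synthesis that SREBP also drives, 1 was higher and 1 was lower (14.3%, beside 13.7% of all tested genes). Acaca, which makes malonyl-CoA, was higher by 0.39 (adjusted p = 0.0437 from limma). This call was lost in 12 of 20 other settings, among them without knock-out mouse 1, 2, 3 or 4 or wild-type mouse 1, 4 or 5 (adjusted p from 0.0634 to 0.11, limma). Me1, which supplies NADPH, was lower without overlap of the groups (log2 difference -0.47, adjusted p = 0.00667 from limma). Mid1ip1, which activates the product of Acaca, had 0.37 (adjusted p = 0.0658 from limma), and without knock-out mouse 1 its adjusted p was 0.0258.

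**Figure D3:**
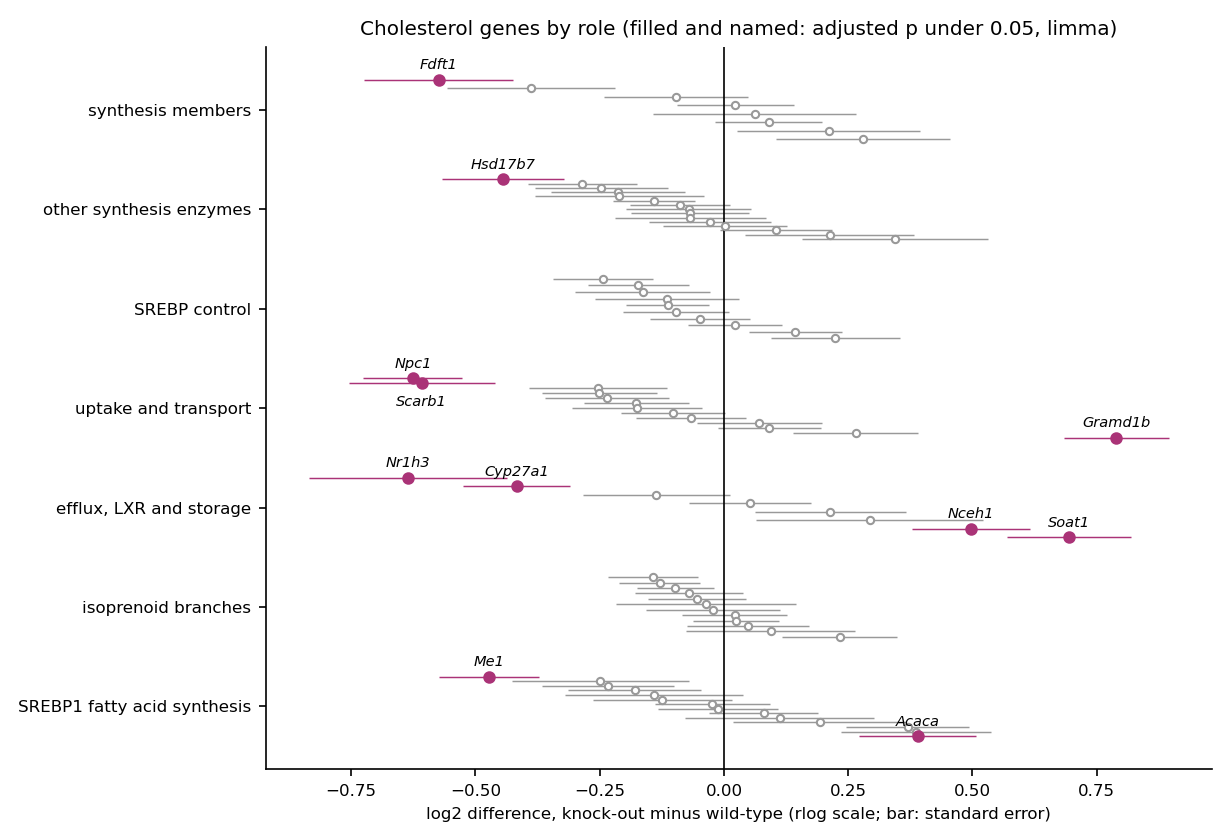
Each point is the log2 difference (knock-out minus wild-type, rlog scale) of 1 tested gene with its standard error, in rows by role; filled and named points passed at an adjusted p under 0.05 (limma). The rows for cholesterol synthesis hold 1 filled point each, Fdft1 and Hsd17b7. The row for fatty acid synthesis holds 2, Acaca and Me1. The rows for SREBP control and isoprenoid branches hold none. The 7 filled points for transport, efflux and storage lie on both sides of 0.

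Markers of several cell types differed between the groups too, where 13.7% of all tested genes passed. All 10 endothelial markers had a lower mean in knock-out muscle and 6 passed (limma), and the sum of their levels on the linear scale was 5140 to 6720 in knock-out and 7040 to 8790 in wild-type mice. Of 10 fibroblast markers, 4 were higher and 1 was lower, with sums of 32700 to 45000 and 23200 to 44800. Of 8 muscle fiber transcripts, 2 were lower, and their sums were 4750000 to 5410000 in knock-out and 5660000 to 11500000 in wild-type mice, the highest being that of mouse 3. Of 5 tested erythroid markers, 2 were lower, with sums of 2880 to 4350 and 4100 to 10600. Schwann cells, which make much cholesterol for myelin, had 1 of 11 tested markers higher, Egr2, and sums of 2280 to 3020 in knock-out and 1830 to 3130 in wild-type mice. None of the 9 tested adipocyte and 10 macrophage markers passed or had an unadjusted p under 0.05 (limma), and their sums overlapped between the groups, 61000 to 72600 against 65100 to 103000 and 2690 to 3780 against 2750 to 3520. Without wild-type mouse 3, 5 endothelial and 3 erythroid markers were lower and 3 fibroblast markers were higher. Of the muscle fiber transcripts, 1 was then higher and 2 were lower, where 17.5% of all tested genes passed. No marker was at 0 in all mice. The part of these cell types in the differences of Fdft1 and the other genes was not tested.

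**Figure D4:**
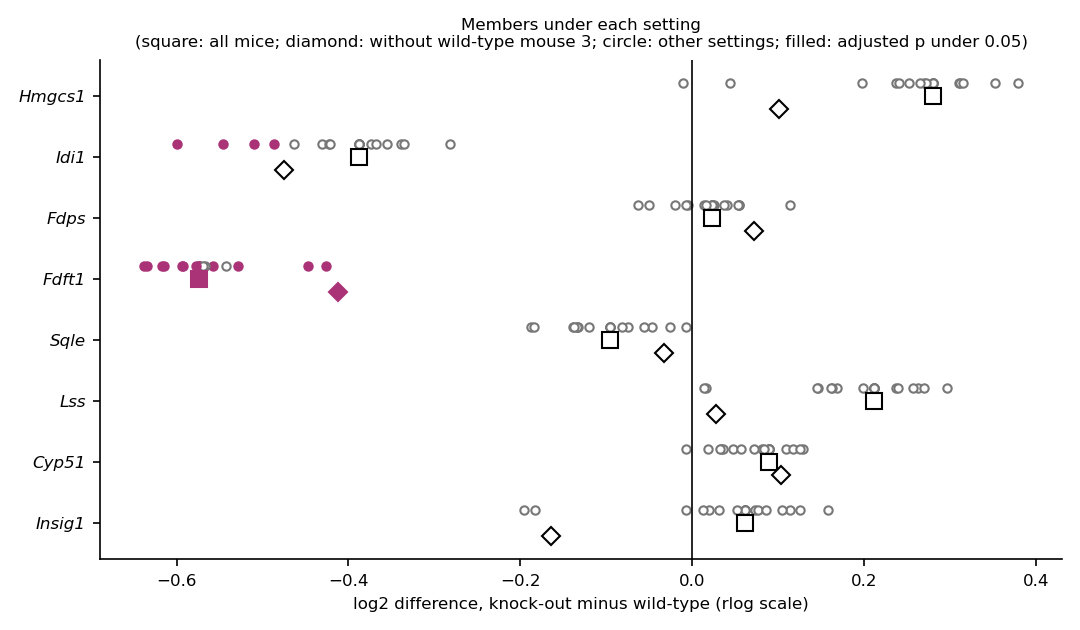
For each gene the log2 difference (knock-out minus wild-type, rlog scale) is plotted for all mice (square), without wild-type mouse 3 (diamond) and under the other settings (circles); filled symbols have an adjusted p under 0.05 (limma). Fdft1 stays between -0.64 and -0.41, and Idi1 between -0.60 and -0.28, while Hmgcs1, Fdps, Cyp51 and Insig1 have settings on both sides of 0.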

How the data were processed

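RNA of the gastrocnemius was sequenced in 5 desmin knock-out and 5 wild-type mice. Per the labels, libraries were made with a stranded mRNA kit, and the submitters (the authors) name in their processing notes cutadapt 2.5, STAR 2.5.4a, featureCounts of Subread 1.6.1, DESeq2 and the build GRCm38. The authors deposited rlog values, which are normalized and on a log2 scale. Depth and counting error are unknown, and the shrinkage in these values makes differences smaller, mostly at low expression. The strand setting of the counting and the settings of rlog are not given in the sources used here.

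Symbols came from GENCODE M21 (GRCm38) for 54079 of 54232 genes. Genes averaging log2(10) or more over all mice were fitted with limma 3.58.1 in R 4.3.3 (genotype alone, variance trend, two-sided, Benjamini-Hochberg over 14289 genes). Single genes had exact permutation tests (Python 3.11.15, 252 regroupings). Near-identical transcripts were found with BLAST 2.17.0. Whether same-numbered mice of both genotypes belong together was checked by the correlation of their deviations (-0.219 to 0.0673), which did not pair them. The fit was tested on simulated data.

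The members and gene lists were chosen with earlier results of these data known. Named were all members, Des, Srebf1, Srebf2, Scap, Insig2, the genes of each pathway list that passed (where fewer than 3 passed, those with the smallest p up to 3), and the 10 genes most like the members' mean. A gene that this rule names is not reported here. The study's methods call the wild-type mice littermates, but which mice shared a litter, and any batch, is not given in the sources used here. The main fit holds genotype alone, so its p-values rest on the spread between these mice and leave litter and batch out. A litter or batch effect that ran with genotype could not be told apart from it. Alternatives were sample weights, a replicate block, quantile normalization, centring on the median, a constant prior variance, an expression limit of log2(50) or none, Y-linked transcripts (Ddx3y, Eif2s3y, Kdm5d, Uty) as a covariate, each mouse left out and an adjusted p under 0.01. Removal of GC and length trends was added after seeing the data.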

Additional observations from a re-analysis of the deposited data

Results flagged for a closer look

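For the 8 members, Des and the named pathway genes, 62 sets of 5 values from 1 genotype were examined for a lone mouse at a distance from the rest. There were 8 such sets, about 3.1 being expected by chance, and in 6 of them wild-type mouse 3 stood out. All sets of 1 genotype come from the same 5 mice and are not independent, so 8 against 3.1 is no test of an excess. Among the members it was above the other wild-type mice for Fdft1 (12.11) and below them for Lss (6.24) and Insig1 (7.62). Its value was also high for Scap (10.23), Fnta (12.01) and Des (17.74). Compared with the mean of the other 4 wild-type mice, it was lower in Insig1 (log2 difference -1.13), Lss (-0.92), Hmgcs1 (-0.90) and Idi1 (-0.43), and higher in Fdft1 (0.81), Sqle (0.32) and Fdps (0.25). In Cyp51 it was 0.07 higher. Its Cyp51 and Idi1 values lay within the range of the other wild-type mice. The remaining cases were wild-type mouse 4, low for Mid1ip1 (9.78), and knock-out mouse 3, low for Srebf2 (9.06). What sets wild-type mouse 3 apart was not tested.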

How the results depend on the processing

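In 20 alternatives, Fdft1 kept its negative log2 difference, from -0.64 to -0.41 (adjusted p from 1.7e-04 to 0.0631, limma), and lost its call in 5, without a limit on expression (adjusted p = 0.0631), at an adjusted p under 0.01, and without knock-out mouse 1, 2 or 4. The number of members that passed was 1 in all mice, 0 without an expression limit or at an adjusted p under 0.01, and 2, with Idi1 added, under sample weights, with the Y-linked covariate or with GC and length trends removed. With each mouse left out it was between 0 and 2. For Idi1 the adjusted p ranged from 0.00158 to 0.28. Among all genes, 1956 passed, 4220 with sample weights and 994 at an adjusted p under 0.01, and between 1400 and 2496 with a mouse left out. Of the other pathway genes, 10 passed, 21 with sample weights and 4 at the stricter limit, and between 7 and 10 with a mouse left out. No member with an unadjusted p over 0.05 reached the threshold in any alternative. Sqle could not be fitted at the limit of log2(50).

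Differences that did not pass turned sign as follows. Under sample weights Hmgcs1 was -0.010, Cyp51 -0.0068, Insig1 -0.20, Srebf1 0.029, Srebf2 0.062 and Scap 0.097. With the Y-linked covariate Insig1 was -0.18, Srebf2 0.036 and Scap 0.052. Fdps was -0.020 under median centring and -0.063 under quantile normalization, Insig2 was -0.020 under median centring and -0.033 with GC and length trends removed, and Srebf2 was 0.012 with those trends removed. With each mouse left out, the log2 difference ran from -0.051 to 0.072 for Fdps, -0.16 to 0.16 for Insig1, -0.080 to 0.0095 for Srebf2, -0.17 to 0.042 for Scap and -0.033 to 0.083 for Insig2. The cause was not tested.

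With the replicate number as a block, 1 member, 9 other pathway genes and 1579 of all genes passed, and Hsd17b7 lost its call (adjusted p = 0.0675, limma). The numbers did not pair the mice. Depth is unknown, so no limit of detection can be given.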
